A study of Mus musculus with 28 samples.

Results

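The lateral fractions of a mouse brain cut in the sagittal plane were compared with the fractions between them and the midline. In Transcriptome Tomography, a frozen brain is sectioned along 1 axis, consecutive sections are pooled into numbered fractions, and RNA of each fraction is hybridised to an array. The comparison used 7 of the 10 sagittal fractions, and the whole series holds 28 arrays from 3 brains. The lateral side was made of the 3 fractions numbered 1, 2 and 10, and the intermediate side of the 4 fractions numbered 3, 4, 7 and 8. Fractions 5 and 6 at the midline and fraction 9, whose dim probes were raised, entered neither side and are given for reference. All 10 fractions came from 1 untreated male C57BL/6J mouse aged 3 weeks, so mouse and plane cannot be told apart and each fraction is 1 array of 1 position. The p-values therefore describe the spread between positions of this brain, and not between animals. The labels number the fractions but do not say which end is left or right.

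The lateral slabs of a rodent brain hold mostly cerebral cortex, with piriform and temporal areas, parts of the amygdala and hippocampus, and the outer cerebellum. The striatum, the thalamus, the large fibre tracts, most of the cerebellum and the ventricles with their choroid plexus lie closer to the midline. In a pooled fraction, fewer cells of a type and less RNA per cell cannot be told apart. Levels below are log2 of the signal relative to the 75th percentile of its array, which is set to 0. A difference is the lateral mean minus the intermediate mean on this scale, so that a difference of 1 is a doubling. Values are listed in the order of fractions 1, 2 and 10 for the lateral side and 3, 4, 7 and 8 for the intermediate side.

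Signal was low in fractions 1 and 10, but not in fraction 2. The 75th percentile of the raw signal was 135, 365 and 205 laterally and 476, 568, 385 and 269 in the intermediate fractions, and fraction 1 had the lowest value of the sagittal series. No sagittal spot was saturated. Fractions 1 to 4 were hybridised on 1 slide and fractions 5 to 10 on another, so slide and side of the brain coincide and cannot be told apart. Fraction 1 stood apart in several gene groups, which are therefore given with and without it.

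Of 26058 probes well above background on all arrays of at least 1 side, 23789 passed on both sides, 899 through the lateral side alone and 1370 through the intermediate side alone. With limma and Benjamini-Hochberg adjustment at 0.05, 8 probes were higher laterally (0.0307% of those tested) and 3 were lower (0.0115%). The number of probes whose sides did not overlap was far larger. All 3 lateral fractions lay above all 4 intermediate ones for 3818 probes (14.7%) and below them for 2708 (10.4%), and these counts were 1796 and 3475 under array median scaling and 3222 and 3192 with quantile normalization. Array median scaling, which moved the median difference over all probes to -0.19, gave 14 higher and 10 lower at an adjusted p under 0.05, which held 5 of the 8 and all 3 of the probes above. At an adjusted p under 0.1, a threshold added after the data were seen, 2056 probes were higher (7.89%) and 1336 lower (5.13%). The median difference over all probes tested was 0.09. With the probes divided by mean level into 4 bins of equal size, 17.3% of the lowest bin had all lateral fractions above and 8.57% had all below, and that bin held 10 of the 11 probes past the threshold. The part of the low signal of fractions 1 and 10 in these values was not tested. Of the 11, Ccn3 and probe A_55_P1978258 were well above background on all 7 arrays. The other 9 entered the test through the side where they are brighter, so their fitted differences and p-values rest in part on values at background. A filter over all 7 arrays left 0 probes past the threshold in either direction (limma, 5253 higher and 2630 lower at an unadjusted p under 0.05), so Ccn3 and A_55_P1978258 lost their calls there too. The calls depended on single fractions. By limma at an adjusted p under 0.05, 2 probes were higher and 0 lower without fraction 1 (3180 and 1993 at an unadjusted p under 0.05), 1157 and 777 without fraction 2, 123 and 18 without fraction 10, and 1 and 2 without fraction 8. Without fraction 3, 4 or 7 there were 0 in either direction, with 3333 to 3635 higher and 1977 to 2073 lower at an unadjusted p under 0.05. With slide as a block, 5 were higher and 1 was lower, which held 3 of the 8 and 1 of the 3. Those kept were the unnamed intervals on chromosomes 14, 15 and 17 and Lmx1a (adjusted p = 0.0363). The block took Ccn3, Gpr39, Qrfpr and Scarletltr to an adjusted p of 0.0690, Krt71 to 0.0912, A_55_P1978258 to 0.101 and the lower interval on chromosome 3 to 0.0690.

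Rnase10, a member of the ribonuclease A family, was given as a marker of the lateral side. Its level was 1.46, 1.78 and -1.54 laterally and -3.50, -3.71, -2.88 and -0.96 in the intermediate fractions. Fractions 1 and 2 were high, and fraction 10 lay below fraction 8, so that the sides overlapped. The difference was 3.33 (SE 0.91, adjusted p = 0.0937), which did not pass. On the first slide it was 5.23 and on the second 0.38. Fraction 9 stood at 0.77 and the midline fractions at -4.26 and -3.47. Rnase10 therefore did not separate the sides, which are named here by fraction number and position.

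Ccn3, which encodes a secreted matricellular protein, was the brightest of the genes past the threshold. It measured 2.36, 1.82 and 1.97 laterally and 0.33, 0.03, 0.26 and 0.42 in the intermediate fractions, and the lowest lateral value lay well above the highest intermediate one. It was 3.46-fold higher laterally, a difference of 1.79 (interval at a confidence level of 0.95 from 1.37 to 2.21, adjusted p = 0.0267, or 0.0690 with slide as a block), with 1.91 on the first slide and 1.63 on the second. Fraction 9, at 1.26, lay above all intermediate fractions, and the midline fractions were at 0.27 and 0.03.

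Both other protein-coding genes that rose encode receptors and were dim. Gpr39, a zinc-sensing receptor, measured -2.86, -2.94 and -2.79 laterally and -4.17, -4.29, -4.15 and -4.13 in the intermediate fractions, of which 2 were well above background. The lateral values were close together and separate from the rest, with a difference of 1.33 (SE 0.14, adjusted p = 0.0267). Its difference was 0.83 with normexp and 0.75 with fraction 9 as lateral, where Gpr39 measured -5.15, below all intermediate fractions. Qrfpr, the receptor of the neuropeptide QRFP, measured -2.11, -2.23 and -2.39 laterally and -3.75, -3.84, -3.65 and -3.94 in the intermediate fractions. Its difference was 1.55 (SE 0.15, adjusted p = 0.0267), or 0.97 with normexp, and a second Qrfpr probe gave 0.98 (adjusted p = 0.0820), which did not pass. The midline fraction 5 was also raised for Qrfpr, at -2.74 against -3.81 in fraction 6.

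Scarletltr, a noncoding RNA, measured -2.88, -3.37 and -2.86 laterally and -5.67, -5.36, -6.12 and -5.13 in the intermediate fractions, of which 1 was well above background. The difference was 2.54 (SE 0.26, adjusted p = 0.0267) and it was 0.98 with normexp. The other 4 probes that rose carry no gene symbol. Of these, 3 are noncoding intervals of the mm9 build, on chromosome 15 from 38639259 to 38639546 (reverse strand, difference 3.08), on chromosome 17 from 13020750 to 13033750 (forward, 2.60) and on chromosome 14 from 79724027 to 79729152 (forward, 2.35), which were 1.19, 1.21 and 0.99 with normexp. The fourth, probe A_55_P1978258, differed by 1.73. All 4 had their highest sagittal level in fraction 9, the one left out of the comparison. For the interval on chromosome 15, no intermediate array was well above background, so it was at least 4.89-fold higher, measured against the dimmest signal well above background on those arrays.

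**Figure D1:**
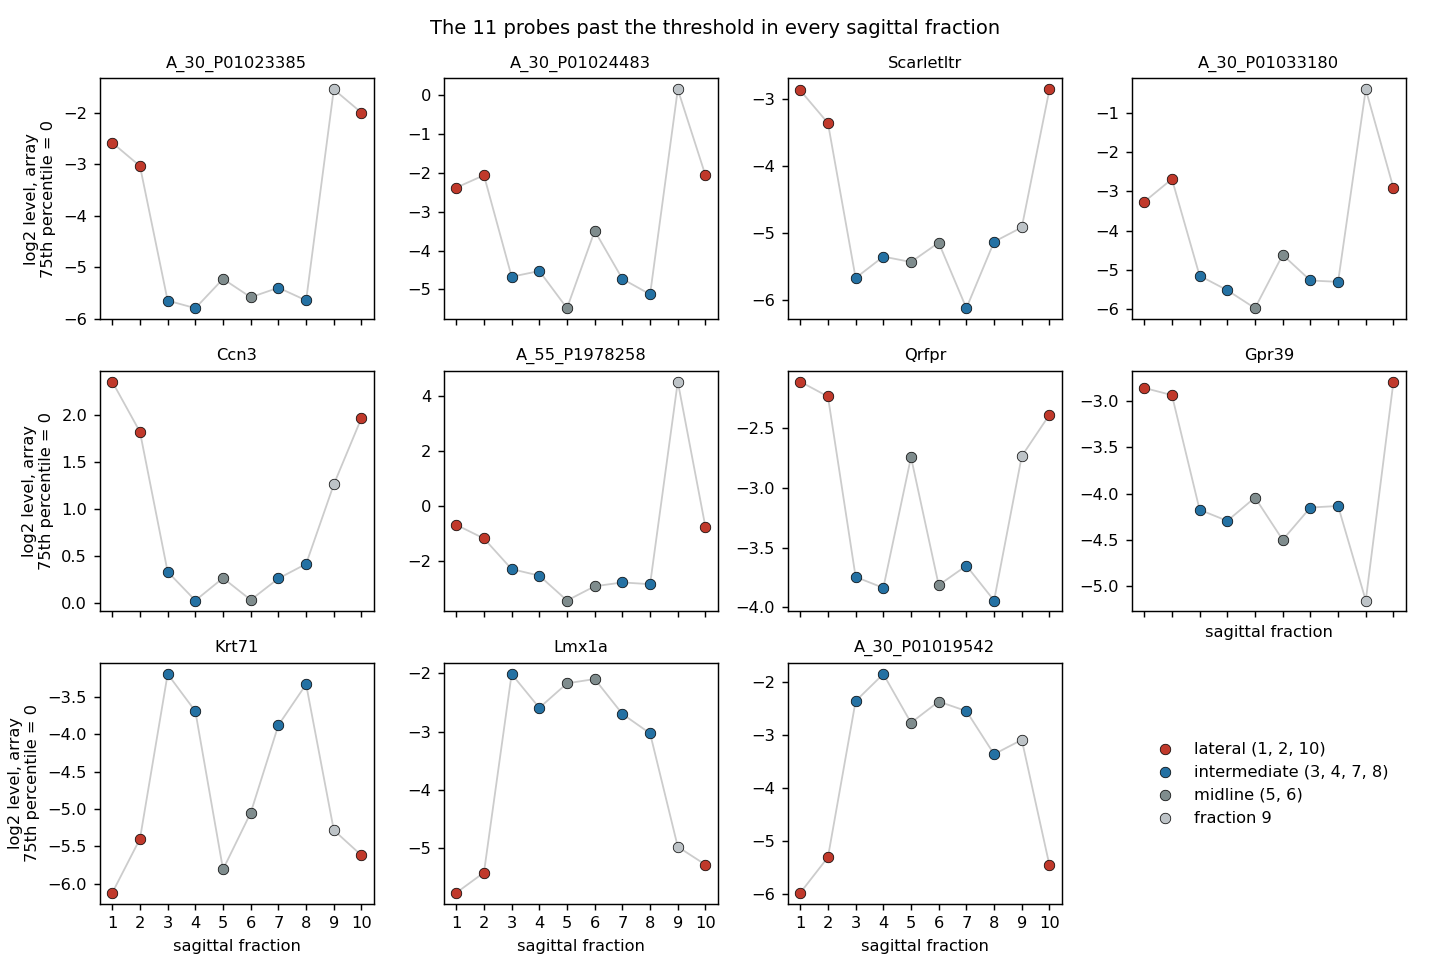
Log2 level (array 75th percentile = 0) of each of the 11 probes past the threshold against sagittal fraction, 1 point per array, with lateral, intermediate, midline and the left-out fraction 9 in different colours. The first 8 panels are probes higher laterally and the last 3 are lower, and 4 of the 8 peak in fraction 9, as A_55_P1978258 does at 4.51.

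Lmx1a, a LIM-homeobox transcription factor of the roof plate and of midbrain dopamine neurons, was among the 3 probes lower laterally. It measured -2.01, -2.59, -2.70 and -3.03 in the intermediate fractions and -5.76, -5.42 and -5.28 laterally, where no array was well above background. As a bound Lmx1a was at least 2.84-fold lower laterally, and the fit, which took the lateral values at background as measured, gave -2.90 (SE 0.25, adjusted p = 0.0149). The midline fractions, at -2.17 and -2.10, were near the intermediate ones, and fraction 9, at -4.97, was near the lateral ones. With normexp background correction, which adds an offset of 50 to every signal, the Lmx1a difference shrank to -0.27 (limma, adjusted p = 0.397).

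Krt71, a keratin known from the hair follicle, had another profile. It measured -3.20, -3.69, -3.88 and -3.33 in the intermediate fractions and -6.12, -5.40 and -5.62 laterally, again not well above background on any lateral array, and the midline fractions were low as well, at -5.81 and -5.05. It was at least 1.48-fold lower laterally, with a fitted difference against background of -2.19 (adjusted p = 0.0389), which was -0.02 with normexp. The third lower probe lies in a noncoding interval on mm9 chromosome 3 from 125556577 to 125557102 (reverse strand), with a difference of -3.06 and a bound of at least 2.96-fold. With normexp its difference was -0.34. That probe was at -2.76 and -2.36 in the midline fractions and at -3.09 in fraction 9.

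The RefSeq table of upstream sequences (GRCm38.p6) held 5 of the 6 named genes past the threshold. Their 250 bases upstream of the annotated start are shown because these are the genes the test called, in the 5′ to 3′ direction of the gene, with matches on either strand to the TATA box (TATAAA), the CCAAT box, the GC box (GGGCGG) or an E-box (CAGCTG) in capitals. Among the first-listed promoters of 27025 genes, 13.0% held the TATA box, 34.5% the CCAAT box, 32.9% the GC box and 12.8% the E-box in the same window.
Gpr39: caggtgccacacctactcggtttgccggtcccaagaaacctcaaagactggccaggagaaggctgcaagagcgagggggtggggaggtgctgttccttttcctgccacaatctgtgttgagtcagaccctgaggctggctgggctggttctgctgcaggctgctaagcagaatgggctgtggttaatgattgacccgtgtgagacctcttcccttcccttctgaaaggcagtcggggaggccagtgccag
Qrfpr: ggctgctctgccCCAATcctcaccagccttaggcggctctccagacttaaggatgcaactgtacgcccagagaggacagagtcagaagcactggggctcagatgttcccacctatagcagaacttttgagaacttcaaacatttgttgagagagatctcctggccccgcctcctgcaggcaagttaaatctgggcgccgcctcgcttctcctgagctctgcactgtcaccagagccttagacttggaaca
Scarletltr: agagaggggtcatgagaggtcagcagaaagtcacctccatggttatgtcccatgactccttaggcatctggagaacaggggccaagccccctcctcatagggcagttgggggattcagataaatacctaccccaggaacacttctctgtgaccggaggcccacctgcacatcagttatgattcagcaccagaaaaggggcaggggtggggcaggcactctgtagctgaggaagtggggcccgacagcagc
Lmx1a: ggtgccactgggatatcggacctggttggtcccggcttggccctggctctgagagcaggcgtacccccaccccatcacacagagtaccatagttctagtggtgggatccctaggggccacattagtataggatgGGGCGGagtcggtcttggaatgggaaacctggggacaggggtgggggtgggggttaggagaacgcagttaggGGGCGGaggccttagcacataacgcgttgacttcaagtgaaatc
Krt71: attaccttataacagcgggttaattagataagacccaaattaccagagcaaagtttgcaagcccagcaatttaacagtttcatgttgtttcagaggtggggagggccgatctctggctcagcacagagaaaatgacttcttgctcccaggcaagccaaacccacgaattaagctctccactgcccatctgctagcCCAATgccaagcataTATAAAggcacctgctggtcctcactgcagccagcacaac
Gpr39 lies on the forward strand of chr1:125676746-125676995, Qrfpr on the reverse strand of chr3:36222276-36222525, Scarletltr on the forward strand of chr9:64080511-64080760, Lmx1a on the forward strand of chr1:167689308-167689557 and Krt71 on the reverse strand of chr15:101743098-101743347. The matches were 2 GC boxes for Lmx1a, 1 CCAAT box for Qrfpr and 1 CCAAT box with 1 TATA box for Krt71, and the windows of Gpr39 and Scarletltr held none of the 4 motifs. These are matches of letters and not measured sites.

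The genes next in order of p had separate sides but did not pass. On the higher side these were Gm3336 (2.63), Pdzk1ip1 (1.38), Myl1 (1.50), Tcap (1.58), Ptger3 (1.12) and Bpifb1 (1.58), with adjusted p-values from 0.0711 to 0.0764. Gm3336 was well above background on no intermediate array, and as a bound it was at least 3.00-fold higher. Tcap, which binds titin in muscle, was the brightest of them, at 2.82, 2.40 and 2.84 laterally and 1.44, 0.87, 0.75 and 1.38 in the intermediate fractions, with lower midline values of 0.21 and 0.33. Ptger3, a prostaglandin E receptor, measured -2.41, -2.55 and -2.85 laterally and -3.60, -3.93, -3.69 and -3.67 in the intermediate fractions. A second probe of Pdzk1ip1 gave 0.75. Pdzk1ip1 and Myl1 were well above background on 2 of the 4 intermediate arrays and Ptger3 on 3, so their differences rest in part on background values. On the lower side these were Dsp (-2.43), Gp2 (-2.26), Gm9895 (-2.24), Ank1 (-1.42), Kif26b (-1.34), C1ql2 (-1.20), Sh3tc2 (-1.19) and Pm20d1 (-1.17), with adjusted p-values from 0.0590 to 0.0764. Dsp and Gp2 were well above background on no lateral array and were at least 2.65-fold and 1.93-fold lower. Gm9895 and Pm20d1 were well above background on 1 of the 3 lateral arrays and C1ql2 on 2, so their differences rest in part on background values. Ank1, an ankyrin that ties membrane proteins to spectrin, measured -2.57, -2.03 and -2.06 laterally and between -0.87 and -0.74 in the intermediate fractions, a range narrower than that of the lateral side. Fraction 9 lay below all intermediate fractions for each of these 8 genes, as it did for 58.1% of all probes tested. With normexp the differences shrank to -0.70 for Ank1, -0.42 for Sh3tc2, -0.39 for Kif26b, -0.19 for Dsp, -0.06 for C1ql2, -0.02 for Gp2 and -0.01 for Gm9895, and that of Pm20d1 turned to 0.22.

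Marker lists of regions and cell types were then read over the same probes. Of 512 genes on 34 lists, 440 were tested, and none passed at 0.05 (limma, smallest adjusted p 0.0711), while 74 higher and 139 lower had an unadjusted p under 0.05. All lateral fractions lay above all intermediate ones for 45 of the 440 and below for 108, or 10.2% and 24.5%, against 14.7% and 10.4% of all probes. In what follows, a gene called separate is one whose sides did not overlap, and no listed gene passed the test at 0.05.

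Cortical genes were split. Of 11 genes of pallial glutamatergic neurons, the excitatory neurons of cortex and hippocampus, 4 lay higher and separate and 1 lower, and the list's median difference was 0.64 against 0.09 over all probes. Emx1, a homeobox gene of the developing cortex, measured 1.62, 0.95 and 1.30 laterally and 0.49, -0.19, -0.27 and 0.33 in the intermediate fractions (difference 1.20, SE 0.25, adjusted p = 0.0820). Slc17a7, the vesicular glutamate transporter VGLUT1, measured 4.44, 3.55 and 4.10 laterally and 3.30, 2.88, 2.96 and 3.46 in the intermediate fractions (difference 0.88, adjusted p = 0.0952), and its midline values were 1.92 and 2.74. For both genes each lateral value was above each intermediate one, and for Slc17a7 fractions 2 and 8 were nearly level. Mef2c and Bhlhe22 were also separate, with differences of 0.82 and 0.64. The 1 separate and lower gene was Neurod1, at -2.12, which is also on the list of cerebellar granule cells. Differences were negative for 2 of the 11 genes.

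Layer markers had no common direction. Of 12 upper layer genes, 3 were separate and higher, with Lhx2 (1.03) and Cux2 (0.44) among them, and the list's median of 0.06 turned to -0.21 under array median scaling. Of 15 deep layer and subplate genes, 4 were separate and higher and 2 separate and lower. Of all 15 differences 6 were positive and 9 negative. Their median was -0.36, -0.17 without fraction 1, -0.63 under array median scaling and -0.02 with normexp. Cplx3, a complexin of subplate neurons, measured 1.79, 1.27 and 0.86 laterally and -0.27, -0.35, -0.64 and 0.37 in the intermediate fractions (difference 1.52, SE 0.29, adjusted p = 0.0820), with midline values of -1.39 and -2.07. Those midline values were the lowest of the 10 sagittal fractions. Crym differed by 0.70 and Fezf2, a layer 5 determinant, by 0.70, while Etv1, also of layer 5, was separate and lower at -0.96. Among 9 genes of claustrum, endopiriform nucleus and lateral cortex, 1 was separate (Gng2, 0.74). Nr4a2, a marker of claustrum and subplate, was highest in fraction 2, at 3.59, and had 2.21 and 2.77 in fractions 1 and 10 against 2.57, 1.61, 1.16 and 2.10, so that the sides overlapped.

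**Figure D2:**
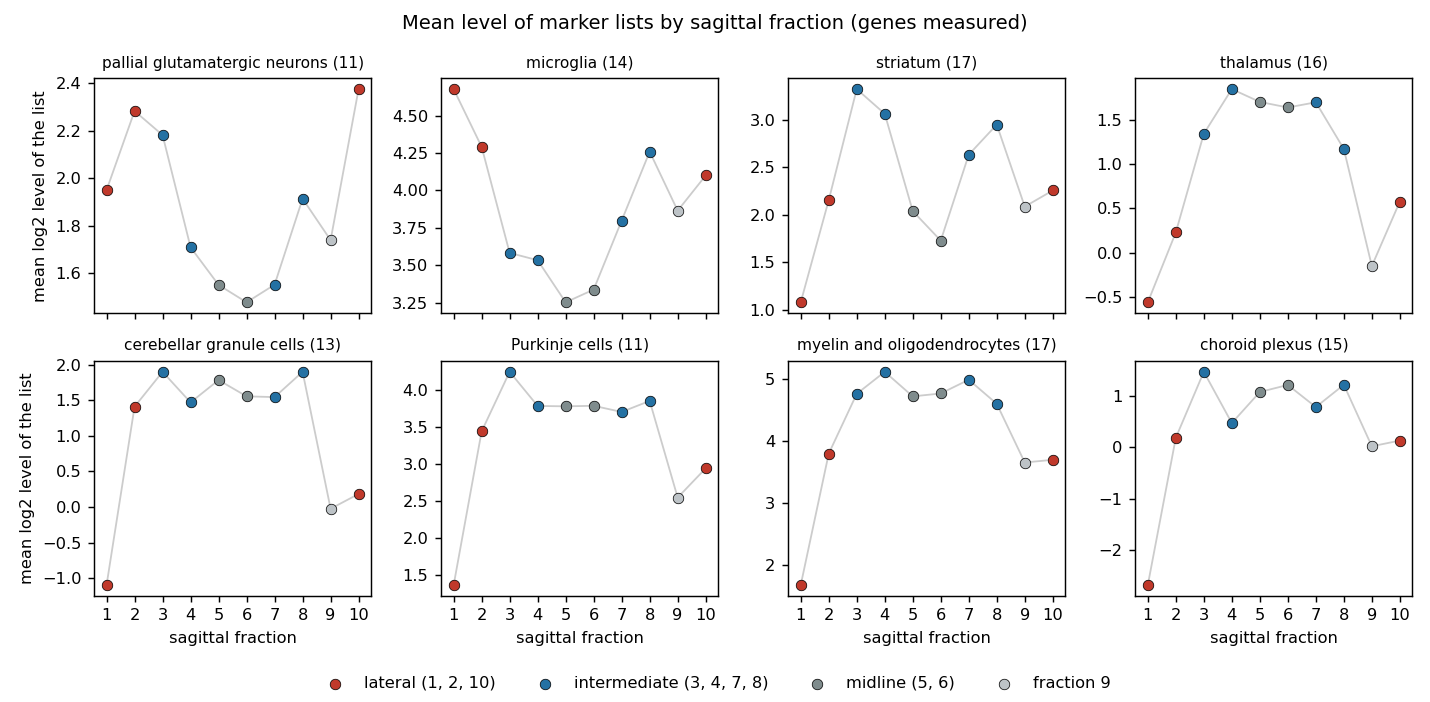
Mean log2 level of 8 marker lists (number of genes measured in brackets) in each sagittal fraction, 1 point per array, coloured as lateral, intermediate, midline or fraction 9. The vertical axes differ between panels. Pallial neuron and microglia lists are lowest at the midline, while the other 6 lists are lowest in fraction 1, where the choroid plexus list stands at -2.69.

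Genes of cortical interneurons lay on both sides of 0. Of 15, 6 were separate and higher and 4 separate and lower. Vip, the neuropeptide of a disinhibitory class, measured 1.67, 1.59 and 1.85 laterally and 0.74, 0.28, 0.23 and 0.70 in the intermediate fractions (difference 1.21, SE 0.19, adjusted p = 0.0764). Cort, a peptide related to somatostatin, measured 4.72, 4.51 and 4.47 laterally and 3.52, 2.82, 3.19 and 3.69 in the intermediate fractions (difference 1.27, adjusted p = 0.0820). Cck, a peptide that pyramidal cells express as well, differed by 0.88, Htr3a, the ionotropic serotonin receptor of this class, by 1.02, Npy by 0.54 and Sst by 0.43. The 4 separate and lower ones were Prox1 (-2.09), Sp9 (-0.85), Pvalb and Slc32a1. Prox1 and Sp9 were each well above background on 1 of the 3 lateral arrays, so their differences rest in part on background values. Pvalb, a calcium-binding protein shared with Purkinje cells, measured 4.82, 6.53 and 6.17 laterally and 7.11, 6.93, 7.08 and 7.70 in the intermediate fractions (difference -1.37, adjusted p = 0.0962, or a difference of -0.86 without fraction 1). Slc32a1, the vesicular transporter of GABA and glycine, differed by -1.10, and the GABA-synthesising enzymes Gad1 and Gad2 had differences of -0.85 and -0.95 with overlapping sides. The list's median, -0.36, turned to 0.14 with normexp and to 0.24 within the second slide, so no direction is given for it.

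**Figure D3:**
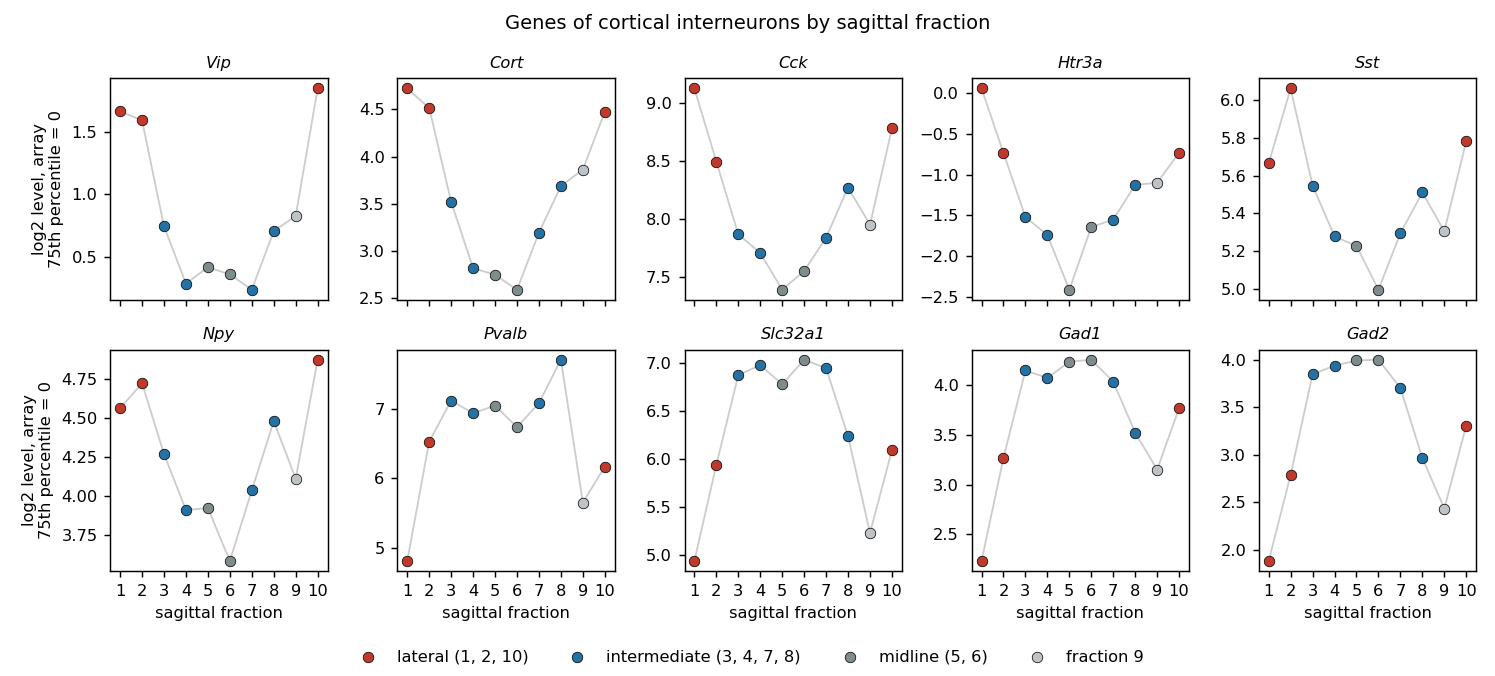
Log2 level (array 75th percentile = 0) of 10 interneuron genes against sagittal fraction, 1 point per array. Vip, Cort, Cck, Htr3a, Sst and Npy are higher in fractions 1, 2 and 10 than in the intermediate ones, as Vip is with 1.67, 1.59 and 1.85, and Pvalb, Slc32a1, Gad1 and Gad2 are lowest in fraction 1 among the 7 fractions compared.

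Hippocampal genes were also split. Of 15, 2 were separate and higher and 5 separate and lower. Rgs14, a regulator of G-protein signalling of area CA2, measured 4.13, 3.31 and 3.33 laterally and 2.66, 2.20, 2.10 and 2.62 in the intermediate fractions (difference 1.19, SE 0.25, adjusted p = 0.0820). Prox1, Dsp and C1ql2, which granule cells of the dentate gyrus express and which were picked from the list after their values were seen, were among the separate and lower ones. Prox1, a homeobox gene that specifies them, measured -5.05, -3.74 and -3.77 laterally and -1.77, -1.80, -2.24 and -2.56 in the intermediate fractions (difference -2.09, adjusted p = 0.0796), and only 1 lateral array was well above background. Dsp, a desmosomal protein, measured -5.85, -4.97 and -4.43 laterally, where no array was well above background, and -2.40, -2.51, -2.69 and -3.00 in the intermediate fractions, at least 2.65-fold lower (adjusted p = 0.0711). C1ql2, a secreted synaptic protein, measured -3.44, -3.70 and -3.41 laterally and -2.14, -2.22, -2.47 and -2.42 in the intermediate fractions. The median over the list, -0.36, turned to 0.03 within the second slide and to 0.22 with the filter over all 7 arrays. Without fraction 1 it was -0.16. Of 10 amygdala genes, 5 were separate and lower, with Isl1 (-2.37) and Prkcd (-1.87) at the extreme, and none separate and higher. Rspo2 had the largest positive difference of them, 0.67, with overlapping sides.

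Genes of the striatum and the thalamus had negative differences with few exceptions. Of 17 striatal genes, 11 were separate and lower and none separate and higher, and the median was -1.05, or -0.72 without fraction 1. Adora2a, the adenosine receptor of indirect pathway neurons, measured -2.54, 0.87 and -2.22 laterally and 2.43, 1.85, 1.61 and 1.90 in the intermediate fractions (difference -3.24, SE 0.74, adjusted p = 0.0836). Penk, the enkephalin precursor, differed by -1.16 and Drd1, a dopamine receptor, by -1.48. Ppp1r1b, which encodes DARPP-32, overlapped because fraction 10, at 5.90, was above fraction 7, at 5.82. The mean level of the striatal list ranged from 2.63 to 3.32 in the intermediate fractions and was lower again at the midline, at 2.04 and 1.73.

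All 16 thalamic genes had negative differences, 11 of them with separate sides, and the median was -1.46, or -1.09 without fraction 1. Rgs16 measured -2.21, -0.65 and -2.12 laterally and 0.30, 1.09, 0.76 and -0.23 in the intermediate fractions (difference -2.14, SE 0.44, adjusted p = 0.0820). Tnnt1, a troponin used as a thalamic marker, differed by -1.35 and Rora, a nuclear receptor, by -0.96. Slc17a6, the vesicular glutamate transporter VGLUT2, measured -0.96, 0.38 and 1.22 laterally and 1.47, 2.88, 2.35 and 0.44 in the intermediate fractions, and since fraction 10 lay above fraction 8 the sides overlapped. The 2 vesicular glutamate transporters had differences of opposite sign, 0.88 for Slc17a7 and -1.57 for Slc17a6 (0.68 and -0.99 without fraction 1), of which neither passed. For Tcf7l2, a transcription factor of thalamic neurons, 2 probes gave -1.24 and 0.40 and the gene is uncertain.

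Hypothalamic and midbrain genes varied widely within the intermediate side. Hcrt, the orexin precursor of the lateral hypothalamus, measured -2.65, 4.32, 3.60 and -0.28 in the intermediate fractions, with fractions 4 and 7 high and 3 and 8 low, and -1.60, -2.08 and 0.91 laterally. The same split held for Avp, Oxt and Pmch, and for the dopamine transporter Slc6a3, which measured -2.70, 2.90, 1.62 and -1.96. None of these had separate sides. Of 12 hypothalamic genes, 2 were separate and higher, the kisspeptin gene Kiss1 (1.08) and Pomc (0.92), and 1 separate and lower, Hdc, which makes histamine (-1.30). Of 20 midbrain and hindbrain genes only 6 passed the filter on low levels, all 6 with negative differences, and 2 were separate (Chat, -2.34, and En2, -2.33). The olfactory bulb list, with 13 of 13 differences negative and 4 genes separate (median -0.96, from -1.66 without fraction 3 to -0.59 without fraction 2 and -0.62 without fraction 7), was uneven between the intermediate fractions as well. Its mean level was 1.86 and 1.34 in fractions 7 and 8, near the midline values of 1.75 and 2.00, but -0.40 and 0.42 in fractions 3 and 4. Eomes, a T-box factor of mitral and tufted cells that unipolar brush cells of the cerebellum also express, differed by -1.94 and Calb2, the calretinin gene, by -1.58.

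Cerebellar genes had mostly negative differences, and fraction 1 stood apart. Of 13 granule cell genes, 8 were separate and lower, with a median of -1.94, -1.22 without fraction 1 and -1.05 with normexp. Gabra6, a GABA-A receptor subunit of these cells, measured -5.73, 2.71 and 0.36 laterally and 3.33, 2.74, 2.74 and 3.53 in the intermediate fractions. Fraction 2 was level with the lowest intermediate fractions, fraction 10 was lower, and fraction 1 was not well above background. The difference of -3.97 (SE 1.66, adjusted p = 0.141) became -1.55 without fraction 1. Fat2, a protocadherin of granule cells, was more evenly low at 0.19, 2.10 and 0.98 against 3.45, 2.78, 2.65 and 2.75 (difference -1.82, adjusted p = 0.0836). Barhl1 is uncertain, since 2 probes gave 0.58 and -3.15.

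Of 11 Purkinje cell genes, 8 were separate and lower and 1 separate and higher, with a median of -1.37, or -0.86 without fraction 1. Pcp2, the Purkinje cell protein, measured 0.15, 7.03 and 5.51 laterally and 7.48, 7.08, 7.24 and 7.88 in the intermediate fractions, so that fraction 1 was far below all others and fraction 2 just below fraction 4. Rgs8, a regulator of G-protein signalling, was lower in every lateral fraction, at 2.05, 3.50 and 3.01 against 4.83, 4.69, 4.35 and 4.13 (difference -1.65, SE 0.34, adjusted p = 0.0820). Itpka, a kinase of inositol trisphosphate that forebrain neurons express too, was the one higher, at 1.03.

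Myelin genes had the highest share of separate members among the 34 lists. Of 17 tested, all had negative differences and 16 had separate sides, with a median of -1.86, -1.16 without fraction 1, -2.21 on the first slide and -1.13 on the second. Gjb1, the connexin 32 gene, measured 1.47, 2.23 and 2.53 laterally and 3.91, 4.42, 4.34 and 3.43 in the intermediate fractions (difference -1.95, SE 0.32, adjusted p = 0.0792). Mag, a myelin glycoprotein, measured 2.93, 5.71 and 5.85 laterally and 6.89, 7.23, 7.17 and 6.48 in the intermediate fractions (difference -2.11, adjusted p = 0.0985, or a difference of -1.16 without fraction 1). Fraction 1 was the lowest for both, and fractions 2 and 10 were near each other. Sox10, the transcription factor of the whole lineage, differed by -1.25. Mbp has 3 probes, which gave -1.87, 0.46 and 0.80, and the brightest, counted here, is the one with the negative value. In precursors of oligodendrocytes the values were smaller, with 3 of 11 separate and lower and a median of -0.53, which was -0.26 within the second slide and -0.80 under array median scaling. Enpp6, which marks newly forming oligodendrocytes, had the largest difference there, -2.43.

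Genes of the choroid plexus, the secretory epithelium of the ventricles, were low in fraction 1. Ttr, its main secreted protein, measured -4.16, 6.65 and 6.25 laterally and 7.80, 6.57, 7.12 and 7.97 in the intermediate fractions, and fraction 2 was slightly above fraction 4. In fraction 1 Ttr was not well above background. The Ttr difference of -4.45 (SE 2.33, adjusted p = 0.207) became -0.92 without fraction 1. Of 15 choroid plexus genes, 7 were separate and lower and the median was -1.45, -0.86 without fraction 1 and -0.72 with normexp. The 10 ependymal genes had a median of -0.81, -0.41 without fraction 1 and -0.20 with normexp. Foxj1, the regulator of motile cilia, was the only separate one, at -1.57.

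Microglial and meningeal genes leaned the other way. Of 14 microglial genes 13 had positive differences, with a median of 0.63, or 0.41 without fraction 1, and of 0.98 on the first slide against 0.09 on the second, and none was separate and higher. Tyrobp, a signalling adaptor, measured 5.58, 4.26 and 4.73 laterally and 2.51, 2.89, 3.47 and 4.44 in the intermediate fractions, where fraction 8 lay above fraction 2. The one gene with a negative difference, Itgam, was separate and lower (-0.63). Of 19 meningeal genes 17 had positive differences (median 0.41, 0.19 without fraction 1, 0.72 without fraction 2 and 0.14 under array median scaling), and 2 were separate and higher, Dcn, the proteoglycan decorin (0.85), and Foxd1 (0.41). The other 2 were Col6a3, near 0, and Zic1 (-2.34), which is also on the granule cell and thalamus lists. The mean level of the meningeal list ranged from 1.72 to 2.49 laterally and from 1.51 to 1.97 in the intermediate fractions, and its part in other differences was not tested.

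The astrocyte list, with 12 of 16 differences negative, had a median of -0.18, or -0.45 under array median scaling. That of the vessel list was -0.06, or -0.33 under array median scaling and 0.16 on the first slide. Within them, Aqp4, the water channel of astrocyte end-feet, measured 2.40, 2.49 and 2.50 laterally and 3.40, 3.45, 3.73 and 3.22 in the intermediate fractions (difference -0.99, SE 0.16, adjusted p = 0.0792). Agt, angiotensinogen, differed by -1.35, while Mfge8 was separate and higher at 0.70. Of 10 blood cell genes none was separate. Of 14 genes of skeletal muscle, a tissue outside the brain, 7 were measured, and Myl1 (1.50) and Acta1 (0.81) were separate and higher, while Pvalb, shared with neurons, was lower. The mean level of that muscle list was -0.24 to -0.04 laterally and -0.92 to -0.55 in the intermediate fractions. It includes Myl1 and Pvalb, so it is not a reading apart from them. The part of muscle in the values of Tcap and Myl1 was not tested. Of 16 genes of sensory ganglia and peripheral nerve 8 were measured, 1 separate in each direction.

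**Figure D4:**
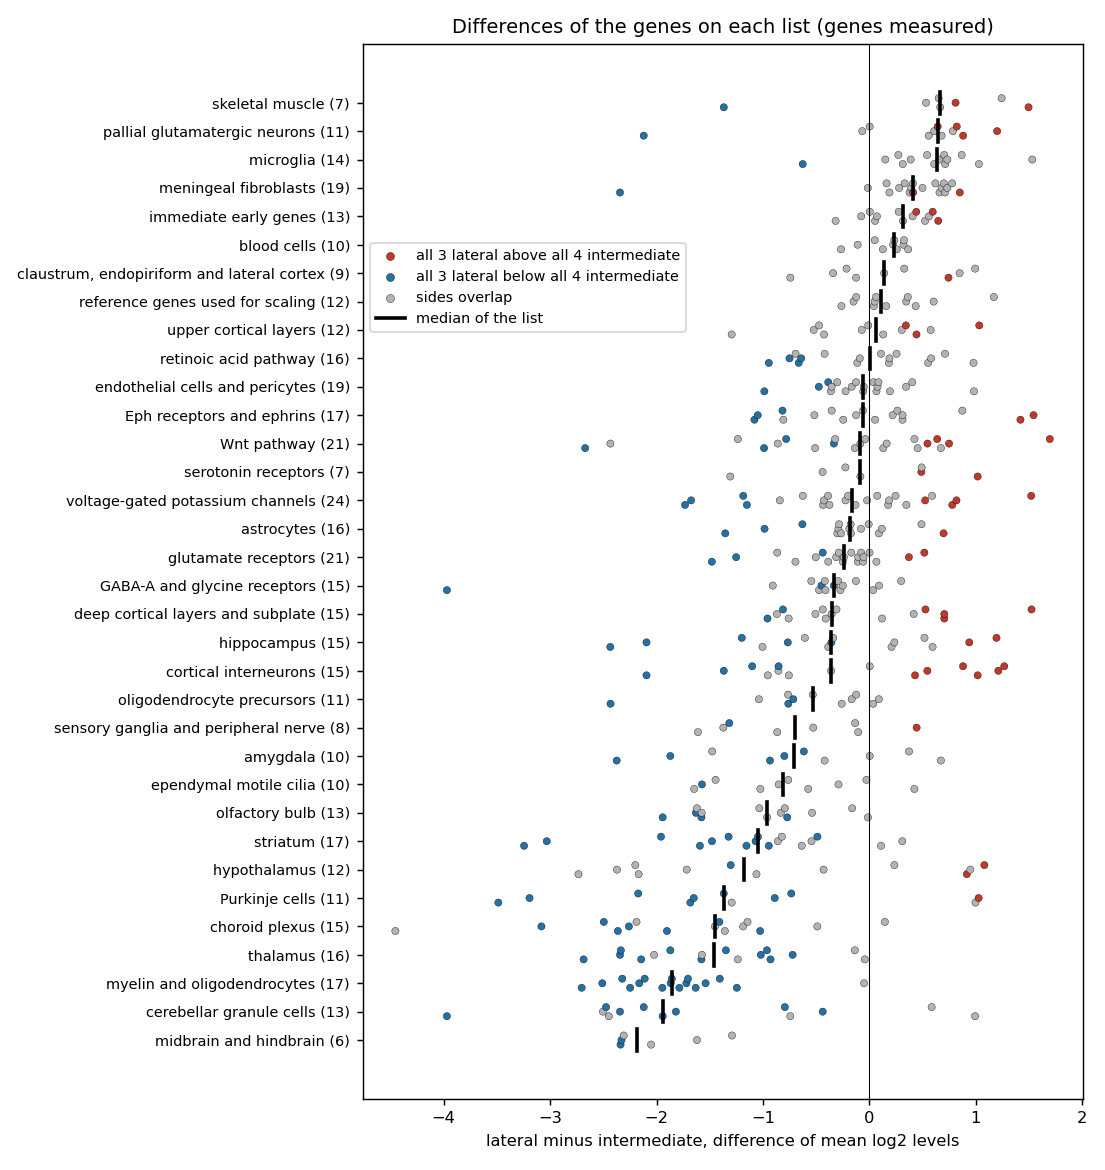
Difference lateral minus intermediate (log2) of each measured gene on 34 lists, sorted by the list's median (black bar), with the number of genes in brackets. Red points have all lateral fractions above all intermediate ones, blue points have all below, and grey points overlap. The myelin list has 16 blue points of 17, while interneuron and potassium channel lists hold both colours.

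Ion channels, receptors and signalling families had members on both sides of 0, and their counts of separate genes stand beside 14.7% above and 10.4% below over all probes. Of 24 voltage-gated potassium channel genes, 4 were separate and higher and 4 separate and lower. Kcna4, an A-type channel, measured 1.92, 0.76 and 0.98 laterally and -0.23, -0.75, -0.43 and 0.20 in the intermediate fractions (difference 1.52, SE 0.32, adjusted p = 0.0820). Kcna1, an axonal delayed rectifier, lay the opposite way at 1.71, 3.64 and 3.45 against 5.01, 5.15, 4.56 and 3.71 (difference -1.68, adjusted p = 0.0985, or a difference of -1.06 without fraction 1). Kcnc1 (-1.19) and Kcnd2 (-1.15) were also separate and lower, and Kcnh3 (0.82), Kcng1 (0.78) and Kcnf1 (0.52) higher.

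Among 17 Eph receptors and ephrins, 2 were separate and higher and 3 separate and lower. Epha5 measured 3.64, 2.31 and 2.63 laterally and 1.32, 0.68, 1.36 and 1.91 in the intermediate fractions (difference 1.54, SE 0.37, adjusted p = 0.0849), and Ephb3 differed by 1.42. The lower members were Epha8 (-1.08), Ephb1 (-1.05) and Efnb3 (-0.82). Among 21 Wnt pathway genes, 4 were separate in each direction. Dkkl1, a soluble protein related to Dickkopf antagonists, measured 4.01, 3.02 and 3.61 laterally and 1.92, 1.52, 1.71 and 2.27 in the intermediate fractions (difference 1.70, SE 0.27, adjusted p = 0.0792). The ligand Wnt3, which granule cells express, was at the other end with -2.67.

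Of 21 glutamate receptor genes, 2 were separate and higher and 3 lower, and the AMPA receptor subunit Gria4 was among the lower ones (-1.48). Differences were negative for 17 of the 21, and the list's median of -0.24 was -0.67 on the first slide and 0.30 on the second. Of 15 GABA-A and glycine receptor genes, 3 were separate and lower and none higher. Of 7 serotonin receptors measured, 2 were separate and higher, Htr3a (1.02) and Htr5b (0.49). In the retinoic acid pathway 4 of 16 were separate and lower, with the receptors Rarb (-0.95) and Rara (-0.64) among them. Of 13 immediate early genes, which neurons induce with activity, 3 were separate and higher, Junb (0.65), Npas4 (0.59) and Ccn1 (0.44), none was lower, and the list's median of 0.32 was -0.02 on the first slide and 0.044 under array median scaling. None of 12 reference genes was separate (median 0.11, or -0.16 under array median scaling), although Rpl13a, a ribosomal protein gene, measured 8.98 in fraction 1 and 6.55, 6.58, 6.98 and 7.69 in the intermediate fractions.

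The contrast was then taken on each slide by itself, as fractions 1 and 2 against 3 and 4, and fraction 10 against 7 and 8. These differences share no array, but they split the arrays of the comparison, and the filter used both slides. Through it 899 probes passed by the lateral side alone and 1370 by the intermediate side alone. Fractions 1 and 10 both had low signal, and the part of the filter and the signal in the values below was not tested. Across the 26058 probes the differences on the slides correlated with r = 0.56, and 68.7% had the same sign. Among the 5007 probes that differed by more than 1 on the first slide, 90.8% had the same sign on the second. Genes are not independent replicates, and these are descriptions. The interaction of the contrast with slide was past the threshold for no probe (limma, adjusted p under 0.05), and 1008 probes had an unadjusted p under 0.05. The median size of the departure from the intermediate fractions of the same slide was 0.73 for fraction 1, 0.30 for fraction 2 and 0.28 for fraction 10. The olfactory bulb list differed by -0.36 on the first slide and by -1.21 on the second, and the striatal list by -1.40 and -0.32.

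**Figure D5:**
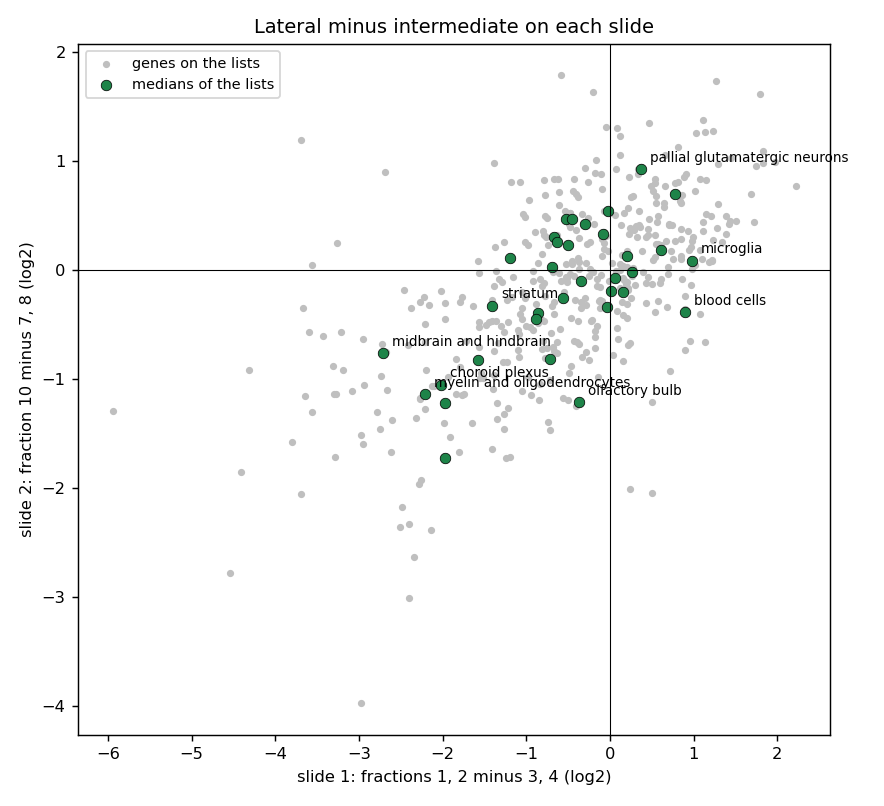
Difference lateral minus intermediate (log2) on slide 1 (horizontal axis) and slide 2 (vertical axis) for the genes on the lists (grey) and the medians of the 34 lists (green). Myelin, with -2.21 and -1.13, is in the lower left quadrant and pallial neurons, with 0.37 and 0.93, in the upper right.

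Fractions that neither side used gave further readings of the same probes. Of the 3818 probes with all lateral fractions above, 46.1% were also above all intermediate fractions in fraction 9, against 21.3% of all probes tested. Of the 2708 with all lateral fractions below, 88.9% were below all intermediate fractions in fraction 9, against 58.1% of all probes as fraction 9 was low for most probes. Both midline fractions lay below all lateral ones for 88.7% of the higher probes (36.3% of all) and above them for 85.8% of the lower ones (24.3% of all). The midline minus intermediate difference had a median of -0.14 in the higher probes and 0.05 in the lower ones. These shares reuse the lateral and intermediate values that separated the probes, so they are descriptions and not a second test.

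The genes past the threshold were also read in brains cut in the coronal and horizontal planes, from other mice. Ccn3 was well above background on all 12 coronal arrays, Qrfpr on 8, Lmx1a on 6, Gpr39 on 5 and Krt71 on 4. On the horizontal arrays these counts were 6, 6, 4, 3 and 1. Scarletltr was well above background on 2 coronal and 0 horizontal arrays, and its highest levels are not given. Ccn3 was highest in coronal fraction 10 (1.87) and lowest in fraction 2 (-2.29), and its highest horizontal level was in fraction 1 (1.82). Lmx1a was highest in coronal fraction 3 (-1.47) and horizontal fraction 5 (-1.74). Gpr39 was highest in coronal fraction 8 (-1.26) and Qrfpr in coronal fraction 7 (-2.68), and Krt71 was highest in coronal fraction 2 (-1.27). The unnamed higher probes peaked in coronal fraction 3 (chromosomes 14 and 17), 6 (A_55_P1978258) and 11 (chromosome 15), and the lower one on chromosome 3 in fraction 4. For the interval on chromosome 15 the peak, at -3.37, was level with the dimmest signal well above background on that array. Only 2 coronal arrays were well above background for it, so its coronal position is uncertain. These 4 unnamed higher probes had their highest horizontal level in fraction 6, whose raw 75th percentile of 233 was below the 267 to 458 of the other horizontal arrays, and the part of that in their levels was not tested.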

How the data were processed

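RNA of each fraction was hybridised by the authors to a one-colour Agilent array and scanned. Per the file headers, Feature Extraction 10.5.1.1 gave the deposited intensity values (gProcessedSignal, background subtracted), and probe intervals are on mm9. The authors also deposited a table of log2 values, used here as an alternative, which lay within 0.49 of the scale used here after array offsets of 0.0035 to 0.0062. Control spots and outlier spots were left out, repeat spots averaged, and log2 of the intensity taken minus the array's 75th percentile. Probes well above background on at least 0.5 of their spots on all arrays of at least 1 side were tested. The 7 fractions, 3 lateral and 4 intermediate, were fitted with lmFit and eBayes (limma 3.58.1, R 4.3.3), two-sided, with Benjamini-Hochberg adjustment at 0.05 over all probes tested. The number of arrays limits the precision. The fit was also run on simulated data with independent arrays of equal spread. The real arrays are positions of 1 brain with unequal spread, so that run cannot show whether the p-values hold for them. Other steps used Python 3.11.15, pandas 2.3.3, numpy 2.4.6 and matplotlib 3.10.9.

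Symbols came from the RefSeq table (GRCm38.p6) through accessions, which named 48.9% of probes. The remainder keep their probe name. A list gene was represented by its probe with the highest mean level, and probes that disagree are named. The genes named were Rnase10, those past the threshold, and up to 4 per list by size of difference. Those past the threshold were filled to 10 a direction in order of p. The filling used only genes with separate sides and well above background on all arrays of the brighter side. Other list genes were named for their role after their values were seen. The comparison, the lists and this rule were chosen with earlier results of these data known. Alternatives covered scaling, background correction (normexp with an offset of 50, on median spot signals in place of the means planned), filters, slide, variance model, samples in the fit and leaving out each fraction. Some list genes are not reported here.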

Additional observations from a re-analysis of the deposited data

Results flagged for a closer look

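Among the 59 sets of intermediate values checked for a single distant sample, Sh3tc2, a gene of peripheral myelination, had one, and chance flags about 1 in 20 groups. In the intermediate fractions Sh3tc2 stood at -1.14 in fraction 3 and between -0.98 and -0.97 in the other three, and the gap took up 0.952 of the range.

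Fraction 9, which entered neither side, exceeded all lateral fractions for 4 of the 8 probes higher laterally. Its level was -1.55 for the interval on chromosome 15 (A_30_P01023385), 0.16 for that on chromosome 17 (A_30_P01024483), -0.41 for that on chromosome 14 (A_30_P01033180) and 4.51 for A_55_P1978258, whose lateral values lay between -1.18 and -0.68. This is also the fraction with raised dim probes, and the part of that in these levels was not tested.

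For 5 lists the mean levels of lateral and intermediate fractions did not overlap on either slide and lay in opposite directions on the slides. Slide 2 minus slide 1 differences of the contrast were 0.63 for upper cortical layers, 0.41 for cortical interneurons, -1.20 for blood cells, 0.93 for voltage-gated potassium channels and 0.38 for Eph receptors and ephrins. For blood cells the list stood at 2.19 and 1.24 in fractions 1 and 2 against 0.93 and 0.96 in fractions 3 and 4, but at 1.80 in fraction 10 against 2.14 and 2.32 in fractions 7 and 8. In each case the difference was not tested.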

How the results depend on the processing

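The counts at an adjusted p under 0.05, 8 probes higher and 3 lower, depended on the processing. They were 14 and 10 under array median scaling, 5 and 1 with slide as a block, 455 and 382 with all 10 sagittal arrays in the fit, and 5748 and 3180 with array weights, which gave fraction 1 a weight of 0.18. They were 0 and 0 with quantile normalization, normexp, a filter over all 7 arrays, no filter, a mean-variance trend with robust moderation, and within slide 1, and 15 and 3 within slide 2, where fraction 10 is assumed to vary like the others. At an unadjusted p under 0.05 these settings gave 4328 and 3713, 5799 and 2695, 5253 and 2630, 6086 and 2291, 5611 and 3057, 4356 and 2281, and 1410 and 1080. Of the 15 higher probes within slide 2, 1 was among the 8. With fraction 9 as lateral they were 6 and 5, and with the log2 values deposited by the authors 8 and 3. Leaving out 1 fraction gave 0 to 1157 higher and 0 to 777 lower. Settings added after the data were seen gave 2 and 0 without fraction 1 on the same probes, and 2056 and 1336 at an adjusted p under 0.1. Of the 8 and 3, array median scaling kept 5 and 3, the slide block 3 and 1, and fraction 9 as lateral 1 and 2. The cause of these moves was not tested.

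Of 507 recomputed values of 25 genes and probes, 1 had another direction, Pm20d1 at 0.22 with normexp. Normexp also shrank differences in both directions, to -0.02 for Krt71, -0.27 for Lmx1a and 0.98 for Scarletltr. Of 714 recomputed list medians 50 changed sign, in 16 of the 34 lists, and the pallial, myelin, thalamus, striatum, granule cell, Purkinje cell, choroid plexus, microglia and meningeal lists were not among them. Signal over background limits the dim probes, which include 10 of the 11 past the threshold. No paired analysis was possible because the fraction numbers are positions along the axis, each held by 1 side in the sagittal series, and number other axes in the other brains. Slide was used as a block instead, since each holds lateral and intermediate fractions.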
